A study of Mus musculus with 4 samples.

Results

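Solute carriers are the membrane proteins that move ions, amino acids, sugars, metals, fatty acids and vitamins across the plasma membrane and the membranes of lysosomes, Golgi and mitochondria. They were measured here as transcripts in mouse osteoclast progenitors with and without Ptip. The genes were taken by symbol: every row of the table whose symbol starts with Slc, a family number and a letter, except Slc4a1, Slc25a37, Slc40a1, Slc2a1, Slc2a3, Slc16a1 and Slc16a3. The symbol rule used no values, but it was set with earlier results of these data known. It gave 244 of 18276 genes. Of these, 237 encode carriers, and 7 carry the symbol without being carriers, such as the scaffold gene Slc9a3r1 and the opposite-strand RNA gene Slc36a1os. By family number the carriers were 42 of amino acids and peptides, 38 of sugars and nucleotide sugars, 26 of metals, 39 of ions, 41 mitochondrial carriers of family 25, and 51 of organic acids, lipids, vitamins, nucleosides and other cargo.

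A carrier of the plasma membrane sets what a cell takes up or exports, often by using the sodium or proton gradient, whereas lysosomal and mitochondrial carriers link compartments. Osteoclasts depend on such transport when they resorb bone, because acid secretion needs exchange of bicarbonate and chloride and the resulting products must leave the lysosome. Progenitors also need amino acids, iron, zinc and phosphate to divide.

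The libraries were poly(A) RNA from bone marrow cells that lacked B220, CD3 and Mac-1 and carried CD115, the receptor encoded by Csf1r. Ptip_KO cells (2 libraries) came from Ptip flox/flox Mx-1Cre mice and WT cells (2 libraries) from WT Mx-1Cre mice. All mice were B6;129 and carried the Mx-1Cre transgene, whose promoter responds to interferon and is active in many tissues besides bone marrow. The labels used here give no age, no inducing agent and no statement on whether a library is 1 animal or a pool, so p-values measure the spread between these libraries. Ptip (gene symbol Paxip1) encodes a protein that works with the KMT2C and KMT2D histone methyltransferases.

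The table held 67592972 to 77773478 reads per library. Paxip1 was at 5.10 and 3.73 CPM (reads scaled to the effective library size) in Ptip_KO libraries, against 106 and 103 CPM in WT libraries. Csf1r was at 782 to 825 CPM in Ptip_KO and 606 to 677 CPM in WT. Of the 10 monocyte and progenitor markers, 4 had a positive and 6 a negative log2 fold change, and limma called 1. This was Kit, at 14.4 and 16.1 CPM in Ptip_KO, against 49.5 and 73.1 CPM in WT. DESeq2 called 1 higher, Csf1r (adjusted p = 0.00317), and 3 lower, Kit, Ly6c2 and Fcgr1. It called 15.4% of all tested genes. Of the 5 osteoclast genes, Ctsk, Ocstamp and Atp6v0d2 stayed under 0.4 CPM in every library, Itgb3 lay at 46.98 to 60.7 CPM, and Acp5 was called lower, at 3.86 and 4.64 CPM in Ptip_KO, against 8.90 and 10.1 CPM in WT. WT replicate 2 stood apart in sex: Xist was at 298 CPM there and under 0.1 CPM in the other 3 libraries. Marker sums of other cell types also differed. The 11 erythroid markers summed to 722 and 994 CPM in Ptip_KO, against 1857 and 4490 CPM in WT, and the 10 macrophage markers to 19.7 and 24.1 CPM, against 126 and 102 CPM. Hbb-bs was the largest part of the erythroid sum, at 394 and 548 CPM in Ptip_KO, against 966 and 2853 CPM in WT. Adgre1 was the largest part of the macrophage sum in WT, at 90.5 and 51.7 CPM. All 11 erythroid and all 8 tested macrophage markers had a negative log2 fold change. The 10 dendritic cell markers summed to 103 and 77.6 CPM in Ptip_KO and to 245 and 199 CPM in WT, and the 12 neutrophil markers to 9817 and 10346 CPM, against 9025 and 13598 CPM. Mpo made up most of the neutrophil sum; the other 11 markers summed to 2046 and 1865 CPM in Ptip_KO, against 3140 and 5436 CPM in WT, each with a negative log2 fold change, and Padi4 was called lower. None of the markers of these 4 lists was at 0 in any library. The 8 B cell markers summed to 52.3 to 56.4 CPM in Ptip_KO and 29.97 to 49.4 CPM in WT, mostly through Cd79b, which was called higher; the other 7 summed to 3.99 and 3.27 CPM in Ptip_KO, against 2.93 and 14.6 CPM in WT. The 8 T and NK cell markers summed to 35.8 to 50.3 CPM in Ptip_KO and 50.2 to 73.1 CPM in WT, and Cd3e and Cd8a were at 0 in Ptip_KO replicate 1. Nkg7 made up most of this sum, at 33.5 and 47.3 CPM in Ptip_KO, against 47.1 and 66.4 CPM in WT. The 6 megakaryocyte markers summed to 7.36 to 14.8 CPM in Ptip_KO and 10.2 to 27.2 CPM in WT. In bulk RNA, fewer cells of a type and less RNA per cell cannot be told apart.

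Setting Ptip_KO against WT asks which carrier transcripts differ in progenitors that lack Ptip. Of the solute carrier genes, 10 differed. Slc2a6, Slc35f6, Slc36a4 and Slc6a12 rose in Ptip_KO, and Slc38a5, Slc22a23, Slc30a4, Slc16a10, Slc45a4 and Slc27a4 fell. Fold changes of the risers lay between 1.48 and 2.93 as ratios of mean CPM, Ptip_KO over WT, and the fallers were between 1.55 and 3.35 times as high in WT as in Ptip_KO. The erythroid, macrophage and dendritic cell marker sums, and that of the neutrophil markers other than Mpo, were lower in Ptip_KO as well, and their part in these falls was not tested. Calls were made at a Benjamini-Hochberg adjusted p under 0.05 by limma on log2(CPM + 1), over the 12357 genes that reached 1 CPM in 2 or more libraries. Of 189 solute carrier genes that reached this level, 10 were called, or 5.29%, where 6.29% of all tested genes were called. Of the 4 called higher, Slc6a12 (the fold of 2.93) reached 1 CPM only in its Ptip_KO libraries, so the filter fixed its direction. The 4 called higher stand beside 2.43% of all tested genes and the 6 called lower beside 3.86%, so the share is near that of the whole table. At an unadjusted limma p under 0.05, 23 were higher and 30 lower, where 23.8% of all tested genes reached that p (11.2% higher and 12.5% lower). By edgeR 5 were higher and 4 lower, where 5.34% of all tested genes were called (1.97% higher and 3.37% lower). By DESeq2 12 were higher and 21 lower, where 15.4% of all tested genes were called (6.31% higher and 9.11% lower).

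The summed level of the set was much alike in the groups. All 244 genes added up to 7727 ± 164 CPM in Ptip_KO, against 7863 ± 211 CPM in WT (SD, n = 2 each), a difference smaller than the spread between replicates. They took 0.784% and 0.789% of all CPM in the Ptip_KO libraries, against 0.759% and 0.786% in the WT libraries. The median log2 fold change of the 189 tested genes was −0.02, beside 0.00 over all tested genes, with an interquartile range of −0.21 to 0.14. In 106 of the 189, or 56.1%, the Ptip_KO and WT libraries did not overlap, close to 55.1% of all tested genes: 50 were higher in Ptip_KO and 56 lower, beside 27.7% and 27.3% of all tested genes. With 2 libraries against 2, an exact two-sided permutation test cannot give a p below 0.333, and each call depends on a variance estimate shared over genes. Of the tested genes, 2 passed the level filter only through the Ptip_KO libraries, Slc6a12 and Slc52a3, and 4 only through the WT libraries, Slc2a4, Slc6a20a, Slc13a3 and Slc25a21, so each of these had to differ between the groups. A near-identical copy was found for 29 of the 244, so reads of these may be split. Of 11 genes on the X chromosome, 9 were tested and Slc38a5 alone was called (11.1%), beside 6.29% of all tested genes.

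**Figure D1:**
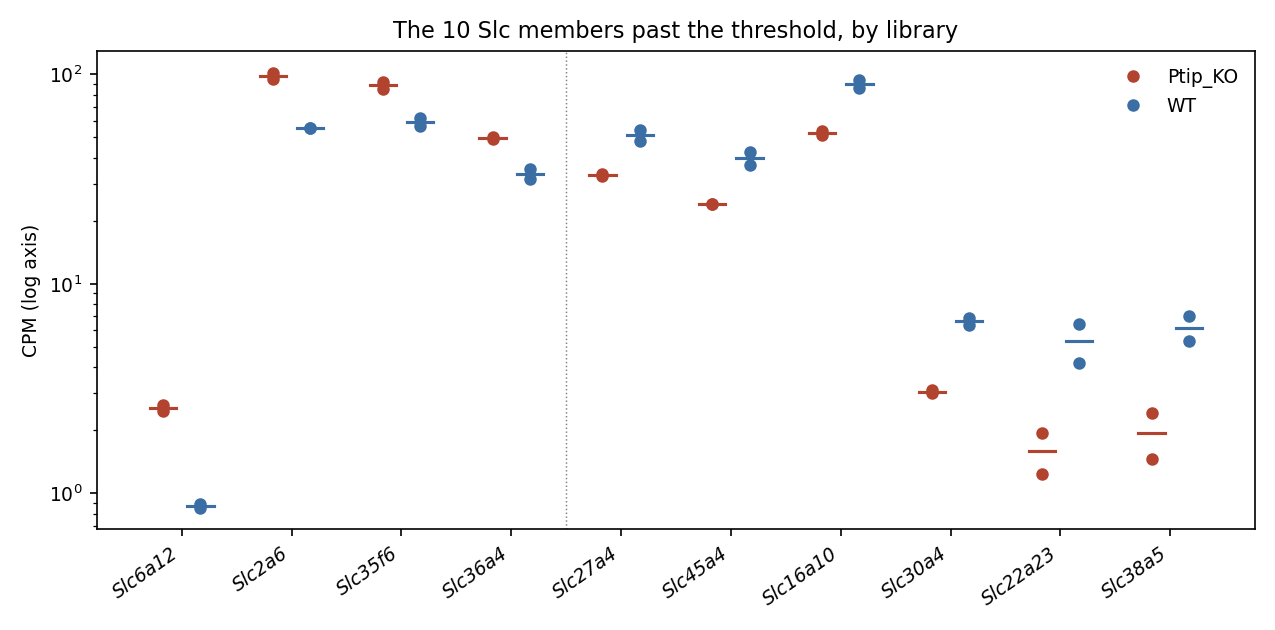
Points are CPM in each library on a log axis, Ptip_KO in red to the left of WT in blue, for the 10 solute carrier genes past the limma threshold; short lines are group means and the dotted line parts the 4 genes that rose from the 6 that fell. The groups do not overlap for any of the 10. For Slc6a12 the level filter fixed this in advance.

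**Figure D2:**
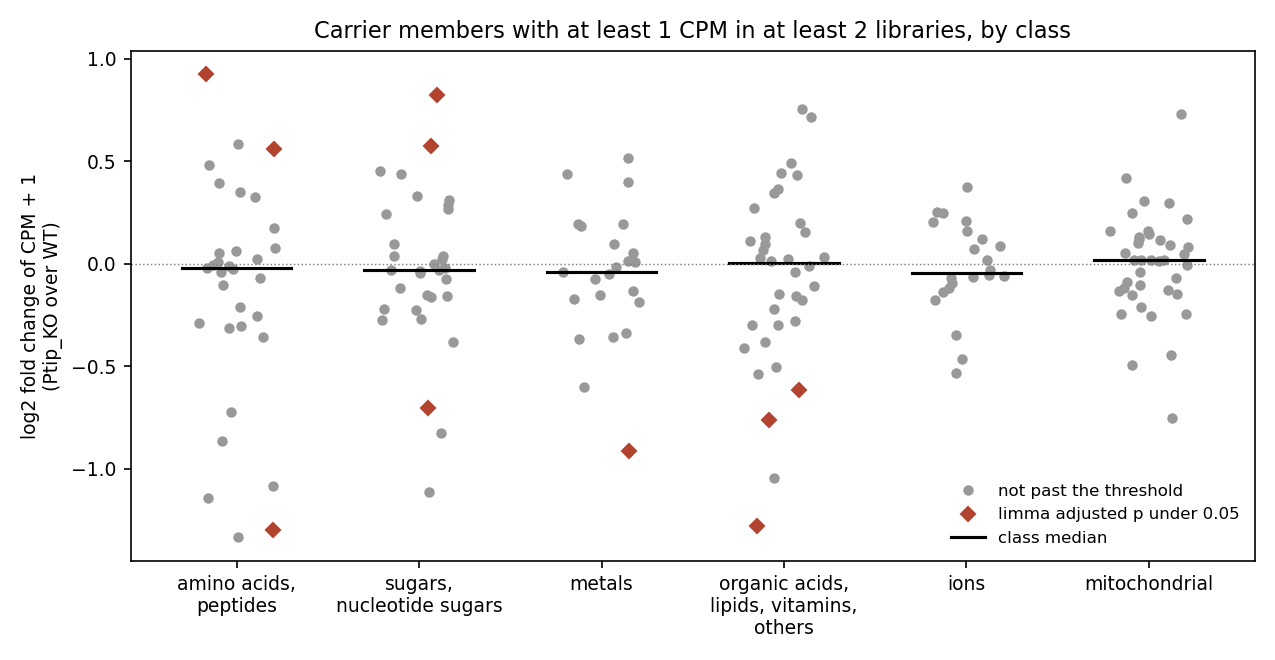
Each point is 1 tested carrier gene, placed by its log2 fold change of CPM + 1 (Ptip_KO over WT) within its class; red diamonds passed the limma threshold and black lines are class medians. All 6 class medians lie between −0.04 and 0.02, and ion and mitochondrial carriers hold no red diamond.

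Promoters are shown for 2 of the genes that rose, Slc2a6 and Slc36a4, and 2 of those that fell, Slc16a10 and Slc38a5, so that the sequence at their starts can be read beside the values that follow. Each is RefSeq sequence on GRCm38.p6, from 250 bases before the RefSeq start to 50 after it, written 5′ to 3′ on the strand of the gene. Capitals mark every match on either strand to 4 motifs: the CCAAT box, spelled by its name, the GC box with the letters GGGCGG, the E-box with the letters CACGTG and the GATA motif with the letters AGATAA. Matches of different motifs may overlap. The windows are chr2:27027949-27028248 (minus) for Slc2a6, chr9:15709488-15709787 (plus) for Slc36a4, chr10:40142205-40142504 (minus) for Slc16a10 and chrX:8271131-8271430 (plus) for Slc38a5. The RefSeq start is the GENCODE gene start for Slc2a6 and Slc36a4 and lies 4 bases inside the GENCODE gene for Slc16a10. For Slc38a5 it lies 248 bases inside the GENCODE gene, so most of that window is within the gene as GENCODE draws it.
Slc2a6: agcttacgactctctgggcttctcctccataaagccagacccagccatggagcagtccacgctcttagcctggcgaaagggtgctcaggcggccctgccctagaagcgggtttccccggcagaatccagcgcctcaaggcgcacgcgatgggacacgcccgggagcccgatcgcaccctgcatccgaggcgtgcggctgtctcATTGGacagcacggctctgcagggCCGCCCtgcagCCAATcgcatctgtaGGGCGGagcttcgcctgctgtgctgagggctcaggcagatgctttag
Slc36a4: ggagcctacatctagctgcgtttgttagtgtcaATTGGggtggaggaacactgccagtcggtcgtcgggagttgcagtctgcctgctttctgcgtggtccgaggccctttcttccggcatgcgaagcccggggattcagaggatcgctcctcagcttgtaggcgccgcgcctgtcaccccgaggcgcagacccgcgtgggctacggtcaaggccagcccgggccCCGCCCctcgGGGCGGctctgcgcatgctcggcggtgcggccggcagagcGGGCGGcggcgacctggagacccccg
Slc16a10: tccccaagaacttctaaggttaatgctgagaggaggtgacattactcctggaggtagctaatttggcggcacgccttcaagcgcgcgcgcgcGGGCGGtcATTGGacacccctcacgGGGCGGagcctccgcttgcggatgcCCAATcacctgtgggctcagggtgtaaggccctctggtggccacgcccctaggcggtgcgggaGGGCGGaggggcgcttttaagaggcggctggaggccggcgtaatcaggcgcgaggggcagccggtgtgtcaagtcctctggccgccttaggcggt
Slc38a5: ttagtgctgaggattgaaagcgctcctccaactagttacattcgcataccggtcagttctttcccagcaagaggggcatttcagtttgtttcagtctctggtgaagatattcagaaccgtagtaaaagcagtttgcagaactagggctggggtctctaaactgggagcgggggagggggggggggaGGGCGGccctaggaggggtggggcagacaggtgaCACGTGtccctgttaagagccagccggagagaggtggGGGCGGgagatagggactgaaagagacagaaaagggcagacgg

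Slc45a4 is named only, and the promoter table held the other 9 called genes. These 9 had 13 promoters, and a gene was counted if any of its promoters matched. The shares set beside the counts are of single promoters, so they are not like for like. A GC box was found for 8 of these 9, with 61.7% of 11757 promoters of tested genes and 69.0% of 197 promoters of tested solute carrier genes holding one. The CCAAT box was found in Slc2a6, Slc36a4 and Slc16a10, 2 that rose and 1 that fell, beside 38.3% of promoters of tested genes. The E-box was found in Slc38a5 alone of the 9, beside 10.2% of promoters of tested genes, and the GATA motif in 0 of the 9, beside 6.57%. GC content was 64.7% for Slc2a6, 69.0% for Slc36a4, 65.3% for Slc16a10 and 56.0% for Slc38a5. The median was 52.7% over all 32851 promoters, 60.7% over 246 promoters of solute carrier genes and 58.7% over the 13 of called genes.

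Sugar carriers held 2 increases and 1 decrease among 32 tested genes (9.38%), where 2.43% of all tested genes were called higher and 3.86% lower. Slc2a6, which encodes the hexose transporter GLUT6, had 102 and 95.01 CPM in Ptip_KO libraries, against 55.2 and 55.4 CPM in WT libraries. Both Ptip_KO libraries were well above both WT libraries, at a log2 fold change of 0.82 ± 0.0859 (SE) (limma adjusted p = 0.0102). Slc2a6 (ENSMUSG00000036067.12) lies on the minus strand of chromosome 2 at 27021363 to 27027998 (mm10). Slc35f6, of a family that includes Golgi nucleotide sugar carriers, had 91.95 and 85.5 CPM in Ptip_KO, against 61.7 and 56.9 CPM in WT (log2 fold change 0.57, limma adjusted p = 0.0280). It lies on chromosome 5 at 30647933 to 30659729. Slc45a4, a member of the proton-coupled sugar transporter family, went the other way, with 23.97 and 24.1 CPM in Ptip_KO, against 36.9 and 42.7 CPM in WT. Its log2 fold change was −0.70 (limma adjusted p = 0.0253), it lies on chromosome 15 at 73577424 to 73645762, and its transcript shares 632 bases at 96.04% identity with Gm5408, so a part of its count is uncertain.

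The other 29 tested sugar carriers did not pass by limma. Slc35c1, the GDP-fucose carrier of the Golgi, was at 49.7 and 42.5 CPM in Ptip_KO, against 98.6 and 68.7 CPM in WT, without overlap, at a limma adjusted p of 0.0612 and a DESeq2 adjusted p of 0.000106. The insulin-regulated glucose transporter gene Slc2a4 had 0.486 and 0.785 CPM in Ptip_KO, against 1.85 and 3.35 CPM in WT (limma adjusted p = 0.0655, DESeq2 adjusted p = 0.00324). The urate transporter gene Slc2a9 had 13.3 and 12.8 CPM in Ptip_KO, against 9.23 and 9.28 CPM in WT (limma adjusted p = 0.0735, DESeq2 adjusted p = 0.0237). Slc2a4 was tested only through its level in WT. By level per kilobase of exon, the leading sugar carriers were Slc35e1, with a mean of 32.5 CPM per kb in Ptip_KO and 35.3 in WT, and the fucose carrier homologue Slc35c2, with 31.5 in Ptip_KO and 37.9 in WT.

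Amino acid and peptide carriers held 3 calls among 32 tested genes (9.38%), where 6.29% of all tested genes were called. The remaining 29 missed the threshold. Slc36a4, an amino acid carrier of the family named for proton coupling, rose to 50.4 and 48.9 CPM in Ptip_KO, against 35.3 and 31.6 CPM in WT (log2 fold change 0.56, limma adjusted p = 0.0343). It lies on chromosome 9 at 15709738 to 15743361. Its lysosomal relative Slc36a1 was at 61.5 and 60.5 CPM in Ptip_KO, against 74.7 and 77.4 CPM in WT, the opposite direction, with a limma adjusted p of 0.0880 and a DESeq2 adjusted p of 0.0173. Slc6a12, the betaine and GABA transporter gene, rose to 2.47 and 2.64 CPM in Ptip_KO, against 0.855 and 0.888 CPM in WT (log2 fold change 0.93, limma adjusted p = 0.0335). It was tested only through its level in Ptip_KO, so its direction was fixed by the filter and its call is no support for a rise of the class; with no filter the limma adjusted p was 0.0249. The values are 188 and 185 reads in Ptip_KO and 63 and 70 reads in WT, from a gene on chromosome 6 at 121343076 to 121365775.

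Slc38a5, which encodes a system N carrier of glutamine, serine and glycine, fell to 1.46 and 2.41 CPM in Ptip_KO, against 5.32 and 7.02 CPM in WT. The log2 difference was −1.30 ± 0.221 (SE), limma gave an adjusted p of 0.0322 and edgeR one of 0.0622. It lies on the X chromosome at 8271133 to 8280179. Both WT libraries, which differ in Xist, were above both Ptip_KO libraries, and the part of sex in this fall was not tested. The glycine transporter gene Slc6a9, which supplies glycine for haem in red cell precursors, had a log2 fold change of −1.33. Its levels were 2.69 and 4.68 CPM in Ptip_KO, against 8.51 and 13.04 CPM in WT, and the adjusted p was 0.0521 by limma and 0.000686 by DESeq2; 27.8% of its exon bases lie opposite Ccdc24, and Gm17114 holds 388 identical bases, so its count is uncertain. The leucine carrier gene Slc43a1 was at 19.1 and 22.3 CPM in Ptip_KO, against 27.9 and 42.9 CPM in WT (limma adjusted p = 0.111, DESeq2 adjusted p = 0.0141). Slc38a5, Slc6a9, Slc43a1 and the summed erythroid markers had the same order of the 4 libraries, lowest in Ptip_KO replicate 1 and highest in WT replicate 2. This order was not particular to them: 19 of the 189 tested solute carrier genes had it (10.1%), among them Slc22a23, Slc45a4, Slc27a3 and Slc2a4, beside 6.63% of all tested genes. The part of red cell precursors in these values was not tested.

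**Figure D3:**
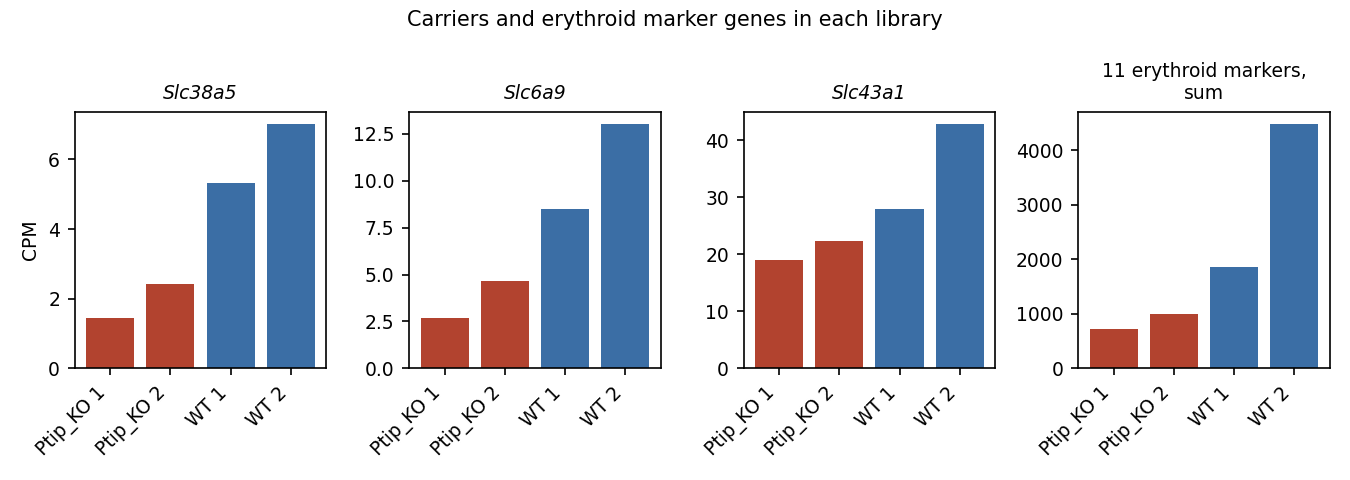
Bars show CPM of Slc38a5, Slc6a9 and Slc43a1 and the CPM sum of 11 erythroid marker genes in each library, red for Ptip_KO and blue for WT, each panel with its own axis from 0. In all 4 panels the bars ascend in the same order of libraries, up to 4490 CPM for the marker sum in WT replicate 2.

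The subunit genes of the heterodimeric amino acid exchangers lay on both sides of no difference, and none passed by limma. Of the 9 tested genes of family 7, 2 had a positive and 7 a negative log2 fold change (median −0.21). Family 7 was taken whole by number, so these counts are not of exchanger subunits alone. The shared heavy chain gene of the exchangers, Slc3a2, was at 84.1 and 97.1 CPM in Ptip_KO, against 86.2 and 91.8 CPM in WT (log2 fold change 0.02, 95% interval −0.23 to 0.28). Among its light chain partners, the y+L exchanger gene Slc7a7 was at 41.7 and 34.8 CPM in Ptip_KO, against 26.03 and 24.2 CPM in WT. It missed the threshold by limma (adjusted p = 0.0520) and passed by edgeR (adjusted p = 0.0432) and DESeq2 (adjusted p = 0.000429). Of its exon bases, 7.0% lie opposite Oxa1l. The large neutral amino acid exchanger gene Slc7a5 was at 60.3 and 63.1 CPM in Ptip_KO, against 78.1 and 74.8 CPM in WT (limma adjusted p = 0.101, DESeq2 adjusted p = 0.0215). The cystine and glutamate exchanger gene Slc7a11 had 2.44 and 1.46 CPM in Ptip_KO, against 3.42 and 8.31 CPM in WT, with a limma adjusted p of 0.144 and a DESeq2 adjusted p of 0.0174. Per kilobase of exon, the highest amino acid carriers were Slc38a10, with a mean of 34.3 CPM per kb in Ptip_KO and 34.6 in WT, and the glutamine carrier gene Slc1a5, with 31.8 in Ptip_KO and 30.8 in WT.

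**Figure D4:**
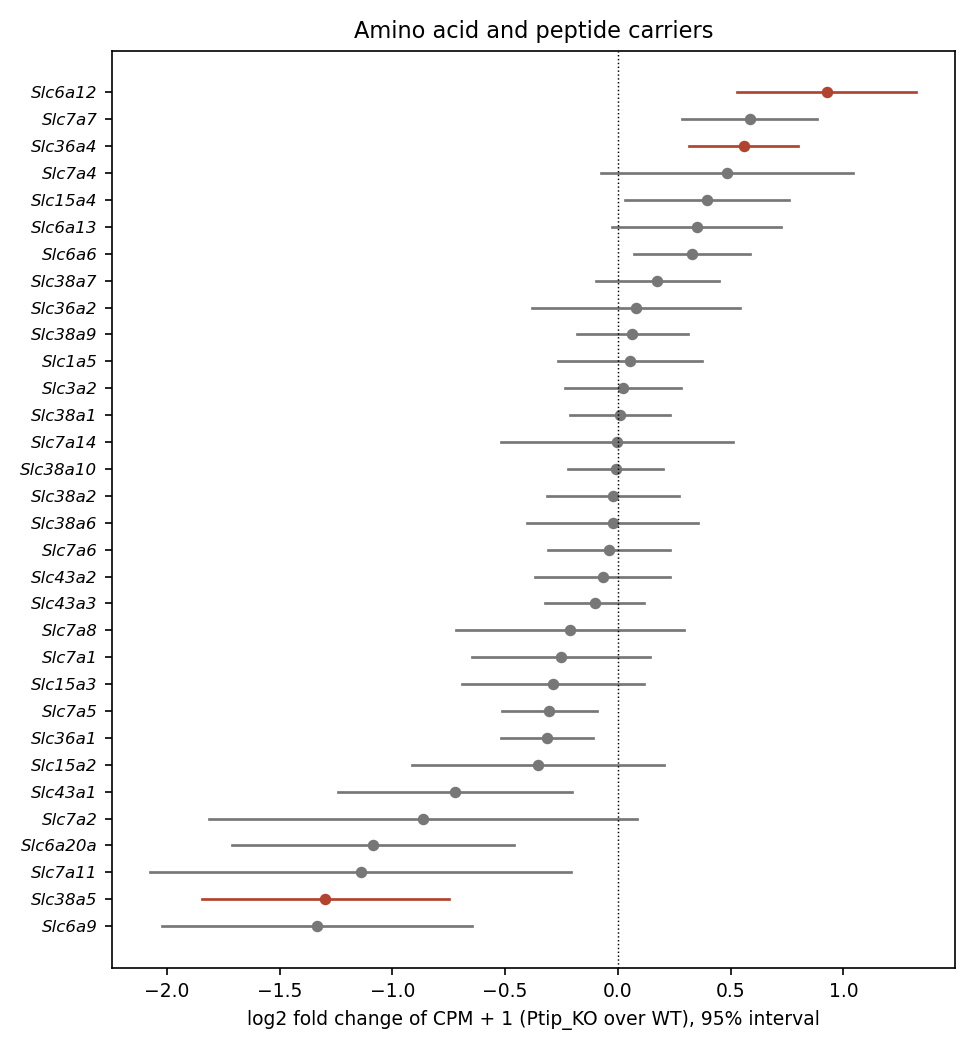
Points are log2 fold changes of CPM + 1 (Ptip_KO over WT) of the 32 tested amino acid and peptide carrier genes, with 95% intervals from limma as lines; red marks the 3 past the threshold. Slc6a12 (0.93) is at the top and Slc6a9 (−1.33) at the bottom, while most intervals cross 0.

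Carriers of organic acids, lipids, vitamins and other cargo held 3 decreases (8.33%) and no increase among 36 tested genes. Of all tested genes, 3.86% were called lower and 2.43% higher. Whether the class departs from these shares was not tested. Slc16a10, which encodes an aromatic amino acid carrier of the monocarboxylate family, fell to 53.6 and 51.4 CPM in Ptip_KO, against 94.2 and 85.6 CPM in WT. The log2 difference was −0.76 ± 0.0920 (SE) at a limma adjusted p of 0.0143, for a gene on the minus strand of chromosome 10 at 40033532 to 40142258. Slc27a4, a long-chain fatty acid transport protein gene on chromosome 2 at 29802634 to 29817522, fell to 33.5 and 32.6 CPM in Ptip_KO, against 47.8 and 54.5 CPM in WT (log2 fold change −0.61, limma adjusted p = 0.0299). The organic ion carrier family gene Slc22a23, on chromosome 13 at 34179158 to 34345182, fell to 1.23 and 1.94 CPM in Ptip_KO, against 4.21 and 6.44 CPM in WT (log2 fold change −1.28, limma adjusted p = 0.0413). Its adjusted p by edgeR was 0.0668.

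Among the 3 tested fatty acid carriers of family 27, Slc27a4 alone passed. Slc27a3 was at 0.893 and 1.64 CPM in Ptip_KO, against 3.13 and 4.16 CPM in WT (log2 fold change −1.05, limma adjusted p = 0.0577, DESeq2 adjusted p = 0.00971). Slc27a1 was at 15.4 and 16.7 CPM in Ptip_KO, against 6.74 and 12.2 CPM in WT (limma adjusted p = 0.149, DESeq2 adjusted p = 0.0873). The choline carrier gene Slc44a2 and the haem carrier gene Slc48a1 led this class per kilobase. Slc44a2 averaged 39.2 CPM per kb in Ptip_KO and 36.3 in WT, and Slc48a1 averaged 33.6 in Ptip_KO and 36.3 in WT.

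Among 23 tested metal carriers, 1 fell (4.35%) and none rose, where 3.86% of all tested genes were called lower and 2.43% higher. Slc30a4, the gene of the vesicular zinc exporter ZnT4, was at 3.10 and 2.997 CPM in Ptip_KO, against 6.38 and 6.86 CPM in WT. The replicates lay close together and the groups far apart, at a log2 difference of −0.91 ± 0.134 (SE) (limma adjusted p = 0.0233). It lies on the minus strand of chromosome 2 at 122681233 to 122702663. The other 5 tested zinc exporters of family 30 had adjusted p values above the threshold by limma, and so did all 11 tested zinc importers of family 39, from −0.36 for Slc39a10 to 0.44 for Slc39a8 on the log2 scale; DESeq2 called Slc39a10 (adjusted p = 0.0366). The magnesium carrier gene Slc41a3 was at 19.7 and 18.6 CPM in Ptip_KO, against 14.6 and 11.8 CPM in WT (limma adjusted p = 0.0835, DESeq2 adjusted p = 0.0129). The phagosomal metal carrier gene Slc11a1 varied strongly, at 26.4 and 14.6 CPM in Ptip_KO, against 37.3 and 24.7 CPM in WT, with overlapping groups (limma adjusted p = 0.308). Per kilobase, the zinc importer gene Slc39a1 (27.0 CPM per kb in Ptip_KO, 26.8 in WT) and the copper carrier gene Slc31a2 (19.1 in Ptip_KO, 24.2 in WT; DESeq2 adjusted p = 0.0272, limma adjusted p = 0.0964) were highest.

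Ion carriers held 0 calls among 22 tested genes by limma, edgeR or DESeq2, and 1 higher and 2 lower at an unadjusted limma p under 0.05. Of all tested genes, limma called 6.29%, edgeR 5.34% and DESeq2 15.4%, and 23.8% reached that unadjusted p. The other 17 ion carriers stayed under the level filter. Among them, Slc34a1, Slc4a3 and Slc26a8 passed by limma with no filter, as given below. The sodium potassium chloride cotransporter gene Slc12a2 was at 3.72 and 3.90 CPM in Ptip_KO, against 5.35 and 5.95 CPM in WT (limma adjusted p = 0.114, DESeq2 adjusted p = 0.119). Slc4a2, the bicarbonate exchanger that osteoclasts use beside the proton pump, was at 69.3 and 64.4 CPM in Ptip_KO, against 70.6 and 69.7 CPM in WT (log2 fold change −0.07, 95% interval −0.28 to 0.15). The highest per kilobase was Slc8b1, the sodium calcium exchanger of mitochondria, at 30.8 CPM per kb in Ptip_KO and 33.4 in WT, followed by Slc12a9 at 11.5 in Ptip_KO and 9.66 in WT.

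Mitochondrial carriers of family 25 held 0 calls among 39 tested genes by limma and by edgeR. At an unadjusted limma p under 0.05, 3 were higher and 3 lower, and DESeq2 called 2 higher and 1 lower. Shares of all tested genes were as given above. The class summed to 2035 ± 72.2 CPM in Ptip_KO, against 2080 ± 95.6 CPM in WT (SD, n = 2 each), within the spread of the replicates. Its log2 fold changes ran from −0.75 for Slc25a21 to 0.73 for Slc25a27, around a median of 0.02; Slc25a21 was tested only through its level in WT, which fixed its sign. The ADP and ATP exchangers led the whole set of carriers. Slc25a5 was at 455 and 421 CPM in Ptip_KO, against 492 and 442 CPM in WT, or 266 CPM per kb in Ptip_KO and 284 in WT, and 3 transcripts of other genes match it at 95.29% to 98.31% identity. Slc25a4 followed with 58.1 CPM per kb in Ptip_KO and 52.1 in WT. The aspartate and glutamate carrier gene Slc25a13 was at 35.8 and 29.8 CPM in Ptip_KO, against 46.2 and 46.6 CPM in WT (limma adjusted p = 0.0671, DESeq2 adjusted p = 0.00375). The pyrimidine nucleotide carrier gene Slc25a36 was at 65.9 and 71.5 CPM in Ptip_KO, against 47.2 and 55.5 CPM in WT (limma adjusted p = 0.0914, DESeq2 adjusted p = 0.0309).

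Of the 7 genes with an Slc symbol that are no carriers, 5 were tested and 0 passed by limma, edgeR or DESeq2 (1 lower at an unadjusted limma p under 0.05). The scaffold gene Slc9a3r1, which anchors sodium proton exchangers, averaged 66.8 CPM per kb in Ptip_KO and 64.1 in WT, and Slc4a1ap averaged 7.34 in Ptip_KO and 7.07 in WT. Low genes made up the remainder: 55 of the 244 stayed under the level filter, among them 17 ion carriers and 15 of the organic acid, lipid and vitamin class. No value of these 55 was above 1.48 CPM. With no filter, 3 of them passed by limma. Of all 18276 genes, 4.49% were called, a share that includes genes above the level filter and so is not like for like. Slc34a1, a phosphate carrier gene of the kidney, was at 0.210 and 0.171 CPM in Ptip_KO, against 0.936 and 0.964 CPM in WT (limma adjusted p = 0.0196 with no filter); 11.7% of its exon bases lie opposite Pfn3. The anion exchanger gene Slc4a3 was at 0.722 and 0.742 CPM in Ptip_KO, against 0.163 and 0.165 CPM in WT (0.0297), and the anion carrier gene Slc26a8 at 1.01 and 0.885 CPM in Ptip_KO, against 0.231 and 0.241 CPM in WT (0.0270). Slc16a12 had 0 reads in both Ptip_KO libraries, which allows up to 0.0394 and 0.0428 CPM, and 5 and 31 reads in WT.

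Single libraries bore on the calls. Slc2a6 and Slc16a10 passed under each of 14 alternative settings. Without Ptip_KO replicate 1, the other 8 lost the call, at limma adjusted p values of 0.0721 for Slc38a5 to 0.153 for Slc36a4, and without Ptip_KO replicate 2, 6 lost it, at 0.0706 for Slc45a4 to 0.198 for Slc6a12. Without WT replicate 1, 25 solute carrier genes were called and without WT replicate 2, 26, while the share of all tested genes called was then 12.1% and 13.1%. Rescaled to a common sum, Slc38a5, Slc22a23, Slc27a4 and Slc45a4 lost the call (0.0582 to 0.0742) and Slc7a7 gained it.

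**Figure D5:**
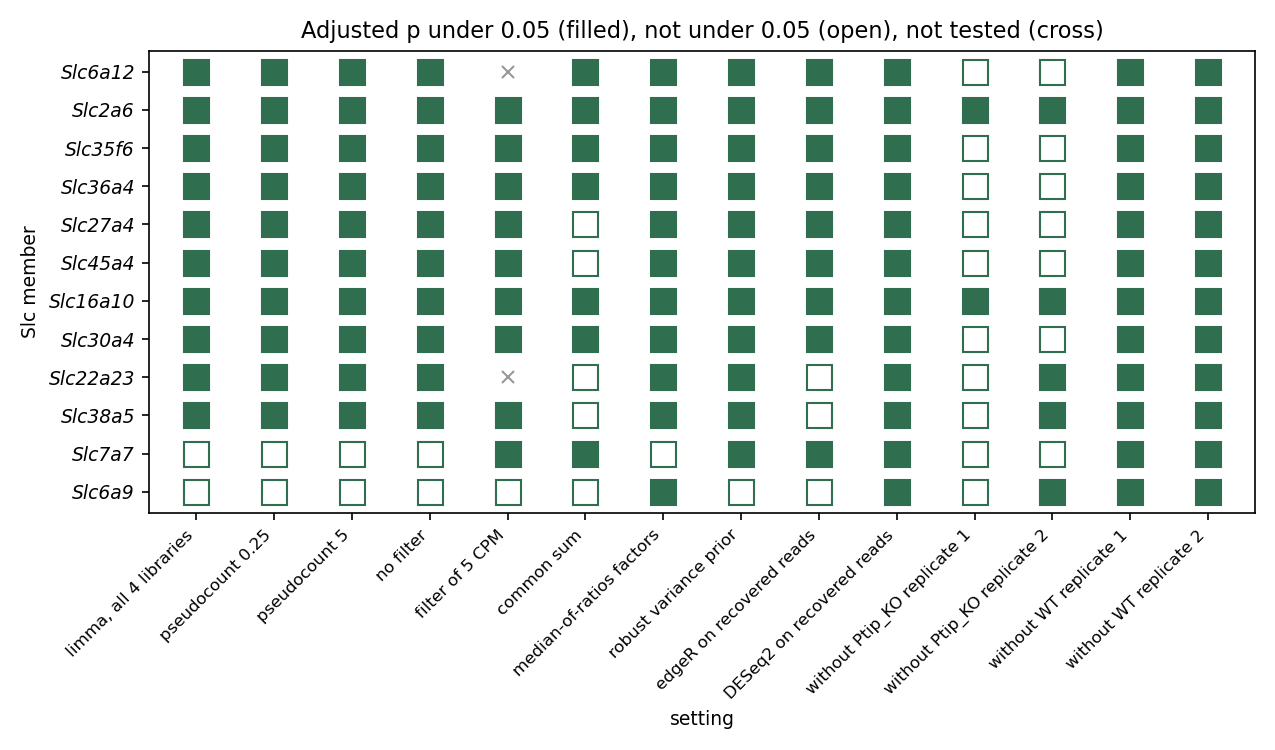
Rows are the 10 called solute carrier genes with Slc7a7 and Slc6a9, and columns are limma on all 4 libraries and 13 other settings. Filled squares have an adjusted p under 0.05, and only Slc2a6 and Slc16a10 are filled in every column shown.

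Other genes of carrier biology, from lists outside the Slc symbols, held 2 limma calls in 4 lists, where limma called 6.29% of all tested genes. At an unadjusted limma p under 0.05, 11.2% of all tested genes were higher and 12.5% lower. Of the same genes, DESeq2 called 6.31% higher and 9.11% lower. Of 22 tested carriers and channels without an Slc symbol, such as the pyruvate carrier genes Mpc1 and Mpc2, 0 passed by limma or edgeR, 2 higher and 5 lower had an unadjusted limma p under 0.05, and DESeq2 called 1 higher and 3 lower. Of 12 tested ion pumps and their kinases, 0 passed by limma or edgeR, 4 lower had an unadjusted limma p under 0.05, and DESeq2 called 4 lower. In the metal handling list, 1 of 14 fell: Fbxl5, an iron-sensing ubiquitin ligase subunit, was at 50.4 and 46.8 CPM in Ptip_KO, against 66.0 and 70.8 CPM in WT (log2 fold change −0.48, limma adjusted p = 0.0430). The metal handling list held 1 higher and 1 lower at an unadjusted limma p under 0.05, and DESeq2 called 1 higher and 1 lower. In the amino acid response list, 1 of 13 fell: Sesn2, a leucine sensor, was at 15.3 and 14.3 CPM in Ptip_KO, against 28.9 and 25.3 CPM in WT (log2 fold change −0.83, limma adjusted p = 0.0194). The amino acid response list held 1 higher and 3 lower at an unadjusted limma p under 0.05, and DESeq2 called 0 higher and 3 lower. Atf4, the transcription factor of that response, was at 210 and 240 CPM in Ptip_KO, against 230 and 217 CPM in WT.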

How the data were processed

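Libraries of poly(A) RNA from sorted progenitors were prepared with a strand-preserving TruSeq kit according to the protocol text. TopHat2 2.0.10, HTSeq 0.6.0, edgeR 3.8.6 and the build mm10 are listed, with no roles, per the submitters' processing notes, and whether counting used strand is not given in the sources used here. The authors deposited 1 normalized signal value a gene and library, which the table's name calls CPM from edgeR with effective library sizes. The WT column numbered 3 was matched through the sample description to WT replicate 2. All values were whole multiples of what 1 read is worth in their library (100% of 18276 within 0.01 read), so reads were recovered; 1 read was worth 0.0127 to 0.0143 CPM, and a count of 0 allows up to 3 reads, 0.0380 to 0.0428 CPM, for counting error only.

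Symbols were matched for 18249 identifiers. Gene positions and exon lengths came from the GENCODE M21 annotation (GRCm38, equal to mm10), where 88.93% of the 244 genes had the same version. Two-sided limma tests (version 3.58.1, R 4.3.3) with a trended prior used log2(CPM + 1) of the genes that reached 1 CPM in 2 or more libraries; fold changes on this scale understate those of low genes. Alternatives were edgeR 4.0.16 and DESeq2 1.42.0 on recovered reads, other pseudocounts, filters and scalings, a robust prior, the replicate number as a term, and each library left out. The fit was tested on simulated data. Replicates were different libraries (chi-square per degree of freedom 39.2 for Ptip_KO and 83.6 for WT). Near-identical copies were sought with BLAST 2.17.0 at 95% identity over 200 bases and 50% of the shorter transcript.

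The genes and lists were chosen with earlier results of these data known. Named by rule were genes past the threshold without overlap and the 2 highest per kilobase in each class; others were named after their values were seen.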

Additional observations from a re-analysis of the deposited data

How the results depend on the processing

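Over all genes, limma called 777. The count was 1906 by DESeq2 and 1721 with the replicate number as a block, and 452 to 1620 with each library left out. Solute carrier genes called higher numbered 4, with 12 by DESeq2, 9 with the replicate block and 1 to 12 with each library left out. Those called lower numbered 6, with 21 by DESeq2, 20 with the replicate block, 2 after rescaling to a common sum and 1 to 16 with each library left out. The cause was not tested. All other settings kept the 3 counts within 1.5 times, among them edgeR (5 higher, 4 lower) and no filter (6 higher, 8 lower). Leaving out Ptip_KO replicate 1 gave 1 higher and 1 lower, and Ptip_KO replicate 2 gave 1 and 5. Leaving out WT replicate 1 gave 9 higher and 16 lower, and WT replicate 2 gave 12 and 14. In these fits the lone library is assumed to vary like the other group.

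Among 334 values under 14 settings of the 24 genes named by rule, 313 stayed on their side of the threshold. Of the rest, 20 lost and 1 gained the call, and 0 called values changed sign. The 24 include 14 genes named for level alone and not called by limma in the main fit. All 20 losses therefore come from the 10 called genes, and the 313 overstate how stable the calls were. Other genes named with limma p-values just above the threshold gained the call more often: Slc7a7 in 8 and Slc6a9 in 6 of 14 settings, Slc27a3 in 6 of 13, and Slc35c1 and Slc25a13 in 4 of 14. The titles share replicate numbers, but no label pairs the mice and there are 2 pairs; the deviations of same-numbered libraries correlated with r = 0.332 across genes, so the block adds only a hint. Depth limits values near 3 reads, and 2 libraries a group limit small differences.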
